A study of Mus musculus with 8 samples.

Results

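The 40 genes described here make the machinery that copies DNA in S phase. They were listed by function, with no threshold on their values but with earlier results of these data known. They comprise 13 genes of origin licensing and the replicative helicase, 14 of polymerases, primase, clamp and ligase, 4 of nucleotide supply, 6 of chromatin assembly, histone mRNA and repair, and 3 G1/S regulators. All 40 of 40 were found among the 19938 mouse genes that the array annotation gave a symbol of their own. Expression was measured in dendritic cell progenitors sorted from bone marrow, with 4 groups of 2 arrays: CDP and pre-CD8 cells, each sorted as Id2-GFP- or Id2-GFP+. CDP stands for common dendritic progenitor, pre-CD8 is not defined further in the labels, and GFP is the green fluorescence of a reporter that follows transcription of Id2. Titles and sources name an Id2-IRES-GFP reporter mouse for every group. The genotype field names heterozygous Id2-IRES-GFP mice for both Id2-GFP- CDP samples and heterozygous Zbtb46-GFP mice for the other 6, so each comparison with Id2-GFP- CDP also sets different genotype fields against each other. Age, sort gates and the number of animals behind a sample are not given in the labels. Nothing in the labels ties the replicates to different animals, so each p-value reflects the spread between these arrays alone, which may be technical.

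Replication runs in steps. In G1 the origin recognition complex, with Cdc6 and Cdt1, loads the Mcm helicase onto DNA, which licenses origins; at the start of S phase Cdc45 and the GINS complex join the helicase and it unwinds DNA. DNA polymerase alpha and primase then start each strand, the clamp Pcna, loaded by replication factor C, holds the elongating polymerases, and ribonucleotide reductase and thymidylate synthase supply nucleotides. Many of these genes are transcribed in late G1 under E2F factors, which cyclin E and its kinase help to release from pocket proteins. Transcripts for mitosis peak later, in G2 and M, and are read mainly through CHR promoter elements. Progenitors of dendritic cells divide before they mature, so the level of these transcripts in a sorted population follows both how many of its cells are cycling and how much each cell makes; in bulk samples, fewer cells of a type and less RNA per cell cannot be told apart.

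Across genes, replicates had an r of 0.984 to 0.989. By mean intensity the arrays formed 2 sets, brighter (461 to 478) and dimmer (402 to 414), and every group had 1 array in each. The sets are defined by intensity alone and their origin is not given. The median difference of brighter minus dimmer was 0.32 (log2) over the 40 members against 0.13 over all genes. In the brighter set 39 of 40 members were higher, against 13101 of all 19938 genes. Within all 4 groups 30 members were higher on the brighter array, which was not counted over all genes. Members also read higher than all genes, with a median level of 9.72 against 6.45. The shift was not particular to them, with medians of 0.35 over 42 mitotic genes and 0.32 over 58 other replication genes. Each result is therefore given from limma without a block, which is the principal test, from limma with the array set as a block (here the set-blocked fit), and as the difference within each set. Because the sets were formed from the intensities of the tested arrays themselves, p-values of the set-blocked fit may be too small. The sort carried its label, as Id2 was higher in Id2-GFP+ cells by 3.79 ± 0.48 (log2 ± SE) in CDP and 4.30 ± 0.48 in pre-CD8. The mean level of 6 dendritic progenitor markers (Flt3, Csf1r, Kit, Irf8, Id2, Zbtb46) lay between 9.37 and 10.53 on all arrays. This list includes Id2, the gene whose reporter was sorted on. The mean was 9.37 to 9.56 on Id2-GFP- arrays and 10.05 to 10.53 on Id2-GFP+ arrays. Single markers moved within that mean: with the reporter in pre-CD8, 3 of the 6 rose by limma, Id2 among them, and 2 fell. Lower averages were seen for 7 erythroid markers (5.96 to 6.15) and 7 T and NK markers (5.03 to 6.002). Other lists were not low: 10 neutrophil and granule markers averaged 9.51 to 12.96 and 5 monocyte markers 7.70 to 11.07.

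Promoter sequences are shown because many of these genes are known E2F targets. RefSeq windows of GRCm38.p6, from 250 bases before to 50 after each start, were matched for 33 of the 40 members (38 windows). The letters searched on both strands, with overlapping matches counted, were TTTCCCGC, TTTGGCGC, TTTCGCGC and TTTGCCGC for E2F. Of the 38 member windows 14 held a match (36.8%), against 574 of 19177 windows of all genes (2.99%). By gene, 7 of the 10 licensing and helicase genes with a window and 5 of the 11 polymerase group genes had a match. No window of the 4 nucleotide supply genes held these letters. CCAAT stood in 55.3% of member windows and 37.4% of all windows. The CHR letters TTTGAA and TTCGAA stood in 13.2% of member windows, 16.5% of all windows and 30 of 38 windows (78.9%) of a list of mitotic genes; the E2F letters stood in 1 of those 38. The 6 windows below, chosen after the values were seen, are from genes the results turn on. They lie at chr1:20820263-20820562 on the minus strand, chr1:128359656-128359955 on the minus strand, chr8:122567765-122568064 on the plus strand, chrX:93632106-93632405 on the minus strand, chr12:24708004-24708303 on the plus strand and chr7:38107441-38107740 on the minus strand. Each is written 5′ to 3′ on the strand of its gene, and capitals mark E2F matches on either strand; the Rrm2 and Ccne1 windows hold none.
Mcm3: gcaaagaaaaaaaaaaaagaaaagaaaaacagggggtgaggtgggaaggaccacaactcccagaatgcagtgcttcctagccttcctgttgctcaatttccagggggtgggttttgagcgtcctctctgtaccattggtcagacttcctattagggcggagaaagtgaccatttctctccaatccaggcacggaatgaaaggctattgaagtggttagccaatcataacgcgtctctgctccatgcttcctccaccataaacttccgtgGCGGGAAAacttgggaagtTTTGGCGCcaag
Mcm6: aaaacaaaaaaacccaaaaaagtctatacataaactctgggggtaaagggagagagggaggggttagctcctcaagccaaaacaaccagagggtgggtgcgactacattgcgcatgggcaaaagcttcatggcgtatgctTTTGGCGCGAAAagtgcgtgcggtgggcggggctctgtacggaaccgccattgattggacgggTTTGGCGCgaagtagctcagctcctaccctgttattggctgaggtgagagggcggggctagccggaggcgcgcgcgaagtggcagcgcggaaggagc
Cdt1: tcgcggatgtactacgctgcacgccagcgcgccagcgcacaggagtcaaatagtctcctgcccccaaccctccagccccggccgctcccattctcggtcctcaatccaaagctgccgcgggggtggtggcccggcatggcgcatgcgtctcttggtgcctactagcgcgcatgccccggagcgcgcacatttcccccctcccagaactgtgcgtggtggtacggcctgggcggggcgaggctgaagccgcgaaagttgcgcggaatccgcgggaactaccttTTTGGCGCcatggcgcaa
Pola1: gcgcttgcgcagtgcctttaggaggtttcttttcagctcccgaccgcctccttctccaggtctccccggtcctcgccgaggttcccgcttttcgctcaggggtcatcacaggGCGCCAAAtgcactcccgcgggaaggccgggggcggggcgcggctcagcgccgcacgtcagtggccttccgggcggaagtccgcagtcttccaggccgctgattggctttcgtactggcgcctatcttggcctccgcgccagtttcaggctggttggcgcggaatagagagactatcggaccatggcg
Rrm2: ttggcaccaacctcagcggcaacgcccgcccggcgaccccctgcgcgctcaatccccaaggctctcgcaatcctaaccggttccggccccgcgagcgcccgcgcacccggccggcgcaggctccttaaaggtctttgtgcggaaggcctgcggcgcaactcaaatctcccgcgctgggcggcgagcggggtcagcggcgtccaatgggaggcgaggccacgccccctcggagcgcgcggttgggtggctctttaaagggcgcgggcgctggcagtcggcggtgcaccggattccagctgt
Ccne1: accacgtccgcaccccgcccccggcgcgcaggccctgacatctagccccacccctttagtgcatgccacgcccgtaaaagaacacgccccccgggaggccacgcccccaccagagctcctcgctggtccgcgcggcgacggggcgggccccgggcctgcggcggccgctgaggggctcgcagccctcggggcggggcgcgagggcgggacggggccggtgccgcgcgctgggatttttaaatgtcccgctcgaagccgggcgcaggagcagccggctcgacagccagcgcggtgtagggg
Mcm3 holds 2 matches and Mcm6 holds 3, of which a pair overlaps. Cdt1 and Pola1 hold 1 each. A match here is a string of letters and was not measured as a bound site, and a window without one says only that these letters are not in it.

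Of the 4 groups, Id2-GFP- CDP stood highest and Id2-GFP- pre-CD8 lowest for most members. The group mean was highest in Id2-GFP- CDP for 30 members, in Id2-GFP+ CDP for 8 and in Id2-GFP- pre-CD8 for 2 (Mcm6 and Msh6). It was lowest in Id2-GFP- pre-CD8 for 27, in Id2-GFP+ pre-CD8 for 12 and in Id2-GFP+ CDP for 1 (Ung). In log2 intensity averaged over the 40 members, the brighter and dimmer arrays read 10.13 and 9.86 in Id2-GFP- CDP, 9.93 and 9.62 in Id2-GFP+ CDP, 9.69 and 9.18 in Id2-GFP- pre-CD8, and 9.69 and 9.53 in Id2-GFP+ pre-CD8. These averages overlap between neighbouring groups, since the dimmer Id2-GFP- CDP array lay below the brighter Id2-GFP+ CDP array.

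**Figure D1:**
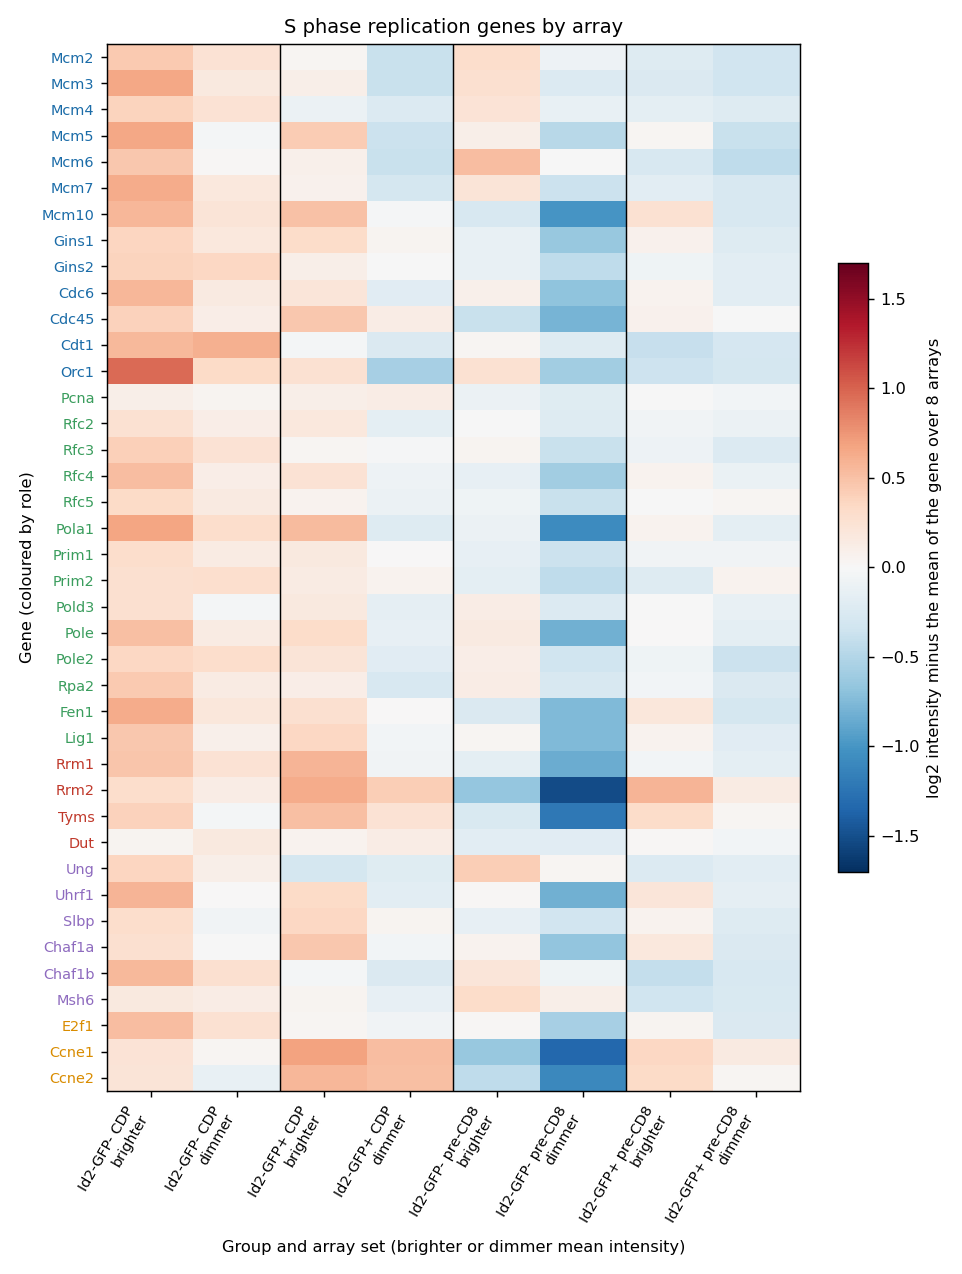
Colour gives the log2 intensity of each of the 40 genes (rows, labelled in the colour of their role) on each of the 8 arrays (columns, by group and array set) minus that gene's mean over all arrays. Id2-GFP- CDP arrays are mostly red and the dimmer Id2-GFP- pre-CD8 array is mostly blue, with Rrm2, Ccne1 and Tyms darkest there; Mcm6 and Msh6 are red on the brighter Id2-GFP- pre-CD8 array.

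The main contrast between stages was from Id2-GFP- CDP to Id2-GFP- pre-CD8. Here 38 of 40 members were lower in pre-CD8, with a median difference of -0.54 (log2) against -0.01 over all genes, and 31 fell in the set-blocked fit. By limma without a block 0 of 40 passed in either direction (18 had an unadjusted p under 0.05), where 1.03% of all genes were called higher and 0.592% lower. The set-blocked fit called 31 members lower and 0 higher, against a background of 6.65% lower and 5.82% higher. Within the brighter set the median was -0.44 and within the dimmer set -0.68, and 37 members were lower in both sets (34.4% of all genes were). The set-blocked count was 15 without Id2-GFP- CDP replicate 1, 9 without Id2-GFP- CDP replicate 2 and 12 without Id2-GFP- pre-CD8 replicate 2. Without that last array, the dimmer of its group, the median was -0.28. Markers of other cell types differed between the same groups. Among monocyte markers 4 of 5 fell by limma (Ccr2, Fn1, F13a1, Ms4a6c and Lyz2 measured), with list means of 9.98 and 10.02 in Id2-GFP- CDP against 7.70 and 8.04 in Id2-GFP- pre-CD8. Among 6 B lineage markers 1 rose by limma and 3 in the set-blocked fit (list means 6.28 and 6.11 against 7.003 and 7.194). Among 10 granule markers 1 fell by limma, and 6 rose and 4 fell in the set-blocked fit (10.55 and 9.51 against 10.16 and 9.92). The part of these markers in the result was not tested.

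Rrm2 and Ccne1 had the largest differences of the 40 members between these groups. Rrm2, the small subunit of ribonucleotide reductase whose level rises in S phase, read 10.52 and 10.35 on the Id2-GFP- CDP arrays (log2, replicates 1 and 2), 10.64 and 10.84 in Id2-GFP+ CDP, 9.56 and 8.70 in Id2-GFP- pre-CD8, and 10.35 and 10.79 in Id2-GFP+ pre-CD8. Both Id2-GFP- pre-CD8 arrays lay below the other 6, and the other 3 groups were close together. From Id2-GFP- CDP to Id2-GFP- pre-CD8 it fell by 1.31 ± 0.15 in the set-blocked fit (adjusted p 0.000171; 0.0899 without the block). Ccne1, a cyclin E that drives entry into S phase, read 8.93 and 8.73, 9.22 and 9.39, 8.05 and 7.36, and 8.86 and 9.05 in the same order of groups. Again the Id2-GFP- pre-CD8 arrays were the lowest pair. Ccne1 fell by 1.12 ± 0.14 (set-blocked adjusted p 0.000442; 0.096 without the block). For Ccne2, the other cyclin E, the arrays read 9.09 and 8.74, 9.38 and 9.43, 8.44 and 7.77, and 8.91 and 9.19. It fell by 0.82 ± 0.14 (set-blocked adjusted p 0.00331), with no overlap between Id2-GFP- pre-CD8 and any other group. Thymidylate synthase, Tyms, which makes dTMP, read 10.37 and 9.95, 10.22 and 10.48, 9.71 and 8.76, and 10.00 and 10.28. It too was lowest on both Id2-GFP- pre-CD8 arrays, and fell by 0.92 ± 0.15 (set-blocked adjusted p 0.0022). Rrm1, the large reductase subunit, fell by 0.86 ± 0.14, and E2f1, an activator of this gene class, by 0.65 ± 0.13. Dut, which removes dUTP, differed by -0.29 ± 0.11 and did not pass (adjusted p 0.152).

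Among helicase and licensing genes, 10 of 13 fell with stage in Id2-GFP- cells in the set-blocked fit. Mcm10, which helps to activate the loaded helicase, read 10.25 and 9.91 in Id2-GFP- CDP, 9.66 and 10.18 in Id2-GFP+ CDP, 9.41 and 8.68 in Id2-GFP- pre-CD8, and 9.41 and 9.94 in Id2-GFP+ pre-CD8. The Id2-GFP- CDP arrays were above both Id2-GFP- pre-CD8 arrays, whose brighter array met the dimmer Id2-GFP+ pre-CD8 array. Mcm10 fell by 1.03 ± 0.11 (set-blocked adjusted p 0.000132). Cdc45, a part of the active helicase, read 9.88 and 9.60, 9.62 and 9.94, 9.11 and 8.70, and 9.48 and 9.55. Its Id2-GFP- pre-CD8 arrays lay below the other 6, and it fell by 0.83 ± 0.11 (set-blocked adjusted p 0.000538). The GINS subunits Gins1 and Gins2 fell by 0.66 ± 0.11 and 0.65 ± 0.12. The licensing factors Cdc6, Cdt1 and Orc1 fell by 0.66 ± 0.14, 0.68 ± 0.13 and 0.81 ± 0.20, and the helicase subunits Mcm3, Mcm5 and Mcm7 by 0.39 ± 0.11, 0.50 ± 0.10 and 0.48 ± 0.11. The other 3 subunits of the same ring did not pass: Mcm2 differed by -0.24 ± 0.09, Mcm4 by -0.26 ± 0.10 and Mcm6 by 0.02 ± 0.09, with set-blocked adjusted p of 0.135, 0.138 and 0.956.

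Of the 14 genes of the fork itself, 12 fell in the same fit. Fen1, the nuclease that trims Okazaki fragments, read 10.08 and 9.65, 9.46 and 9.72, 9.21 and 8.70, and 9.15 and 9.64 in the order of groups used above. It fell by 0.91 ± 0.11 (set-blocked adjusted p 0.000238); the brighter Id2-GFP- pre-CD8 array was above the dimmer Id2-GFP+ pre-CD8 array. Pola1, the catalytic subunit of polymerase alpha, read 10.26 and 9.88, 9.36 and 10.13, 9.49 and 8.52, and 9.42 and 9.65. The 2 Id2-GFP- groups did not overlap, and the difference was -1.07 ± 0.16 (set-blocked adjusted p 0.00125), but it was -0.77 in the brighter and -1.36 in the dimmer set. Rfc4, a clamp loader subunit, read 10.30 and 9.88, 9.68 and 10.01, 9.62 and 9.17, and 9.65 and 9.82. It fell by 0.69 ± 0.11 (set-blocked adjusted p 0.00128), and its Id2-GFP- pre-CD8 arrays were the 2 lowest. The ligase Lig1, the polymerase epsilon subunits Pole and Pole2 and the primase subunits Prim1 and Prim2 fell by 0.63 ± 0.12, 0.65 ± 0.15, 0.44 ± 0.13, 0.48 ± 0.09 and 0.58 ± 0.14. The loader subunits Rfc3 and Rfc5 fell by 0.49 ± 0.12 and 0.47 ± 0.10, the single-strand binding subunit Rpa2 by 0.37 ± 0.10 and the clamp Pcna by 0.23 ± 0.05. Rfc2 and the polymerase delta subunit Pold3 did not pass, at -0.30 ± 0.09 and -0.18 ± 0.10.

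Of the 6 genes of chromatin, histone mRNA and repair, Uhrf1 (a reader of hemimethylated DNA), Slbp (which binds histone mRNA) and Chaf1a (a subunit of chromatin assembly factor) fell by 0.69 ± 0.11, 0.35 ± 0.10 and 0.44 ± 0.13. The adjusted p of Chaf1a, and that of Pole2, was 0.0486, just under the threshold. The other 3 did not pass: Chaf1b, the partner of Chaf1a, differed by -0.34 ± 0.12, the mismatch repair gene Msh6 by 0.06 ± 0.11 and the uracil glycosylase Ung by -0.01 ± 0.14. A mitotic list of 42 measured genes gave larger differences between the same groups, with 10 falling by limma, 42 in the set-blocked fit and a median of -1.15. Prc1, a spindle midzone protein, differed by -1.55 ± 0.20 (limma adjusted p 0.00971) and Nuf2, a kinetochore protein, by -1.41 ± 0.20 (adjusted p 0.0135). Of 58 measured genes of a wider replication list outside the members, 3 fell by limma (Asf1b, E2f8 and Rad51ap1), 39 in the set-blocked fit, and the median was -0.53, close to that of the members.

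**Figure D2:**
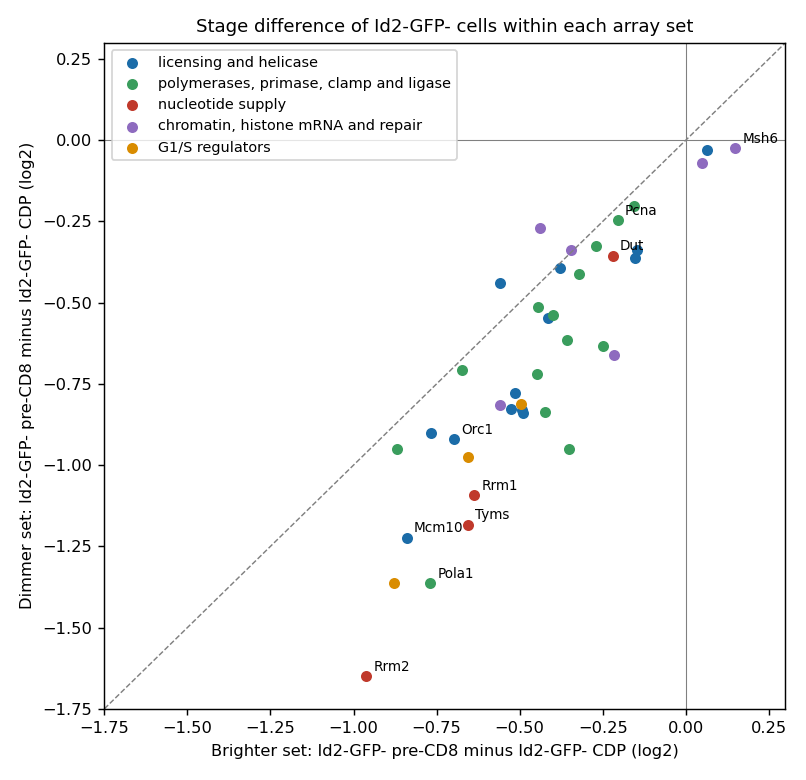
Each point is 1 of the 40 genes, coloured by role, with the log2 difference of Id2-GFP- pre-CD8 minus Id2-GFP- CDP in the brighter set on the horizontal axis and in the dimmer set on the vertical axis; the dashed line marks equal differences. Most points lie below the line, with Rrm2 at -0.96 and -1.65, while Mcm6, Msh6 and Ung sit near 0.

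Within the Id2-GFP+ class no member passed between the stages. From Id2-GFP+ CDP to Id2-GFP+ pre-CD8 the median over members was -0.17, the differences ran from -0.37 (Rrm1) to 0.05 (Ung), and none passed in either fit. By limma 0 of 40 passed and 0 had an unadjusted p under 0.05; the background was 0% higher and 0% lower. The set-blocked fit called 0 of 40 (8 with an unadjusted p under 0.05), against 0.973% of all genes higher and 1.1% lower. Within the sets the medians were -0.24 and -0.06. Leaving out 1 array gave -0.31 without Id2-GFP+ CDP replicate 1, -0.02 without Id2-GFP+ CDP replicate 2 and -0.08 without Id2-GFP+ pre-CD8 replicate 1. Of the erythroid, granule, B lineage, T and NK, and monocyte markers none passed by limma. In the set-blocked fit 1 of 7 erythroid and 3 of 10 granule markers fell, and 1 of 5 monocyte markers rose and 3 fell. Mitotic genes gave a median of -0.02 with none called in either fit, and 2 of 42 had an unadjusted p under 0.05 with the block. A p that misses the threshold does not show equal levels: the median SE of a member was 0.25 without and 0.11 with the block.

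At the CDP stage the members called lower with the reporter in the set-blocked fit were mostly licensing genes. In Id2-GFP+ CDP 32 of 40 members were lower than in Id2-GFP- CDP, with a median of -0.24 against 0.00 over all genes, and 8 fell in the set-blocked fit, of which 7 license origins or form the helicase. By limma 0 of 40 passed (4 had an unadjusted p under 0.05), where 0.597% of all genes were called higher and 0% lower. The set-blocked fit called 8 lower and 0 higher, against 4.17% lower and 3.69% higher over all genes. In both sets 30 members were lower (32.4% of all genes), with medians of -0.17 and -0.26. The 8 calls were lost on leaving out either array of Id2-GFP- CDP or replicate 1 of Id2-GFP+ CDP, and without replicate 2 of Id2-GFP+ CDP 5 members passed, 1 of them higher. The median itself was -0.09 without Id2-GFP- CDP replicate 1 and -0.07 without Id2-GFP+ CDP replicate 1, and -0.41 without Id2-GFP+ CDP replicate 2.

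Cdt1, which loads the helicase and is destroyed once S phase begins, showed the plainest separation. Its arrays read 9.39 and 9.44 in Id2-GFP- CDP, 8.59 and 8.80 in Id2-GFP+ CDP, 8.87 and 8.61 in Id2-GFP- pre-CD8, and 8.55 and 8.44 in Id2-GFP+ pre-CD8. Both Id2-GFP- CDP arrays lay above the other 6, the Id2-GFP+ pre-CD8 arrays were the 2 lowest, and the arrays of the remaining groups overlapped. With the reporter in CDP it fell by 0.72 ± 0.13 (set-blocked adjusted p 0.00753; 0.36 without the block). Mcm2, a helicase subunit, read 11.53 and 11.33, 10.71 and 11.13, 11.39 and 11.00, and 10.76 and 10.87. In each stage both Id2-GFP+ arrays were below both Id2-GFP- arrays, and the fall in CDP was 0.52 ± 0.09 (set-blocked adjusted p 0.00786). Mcm3, another subunit, read 11.43 and 10.94, 10.39 and 10.88, 11.05 and 10.54, and 10.43 and 10.53. The reporter classes did not overlap in either stage, though by a small margin, and the fall in CDP was 0.55 ± 0.11 (set-blocked adjusted p 0.0124). The other called members were Mcm4, at -0.48 ± 0.10, Mcm6, at -0.38 ± 0.09, Mcm7, at -0.52 ± 0.11, Orc1, the largest subunit of the origin recognition complex, at -0.80 ± 0.20, and Chaf1b, at -0.55 ± 0.12. Their set-blocked adjusted p ran from 0.0151 (Mcm4) to 0.0377 (Orc1). The 6 Mcm ring subunits are paralogs, and whether a probe for any of them also picks up another's transcript was not tested. None of the 14 polymerase group genes, 4 nucleotide supply genes or 3 G1/S regulators passed. Of the polymerase group, however, 13 of 14 were lower, each in both sets, with a median of -0.24. The smallest set-blocked adjusted p among them was 0.056 (Rpa2), and the roles were not tested against each other. Cyclins E and Rrm2 were on the higher side, Ccne2 at 0.48 ± 0.14, Ccne1 at 0.48 ± 0.15 and Rrm2 at 0.31 ± 0.15, with set-blocked adjusted p of 0.0685, 0.0738 and 0.268.

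Mitotic genes in Id2-GFP+ CDP differed in the other direction. All 42 were on the higher side, with a median of 0.36, 0 called by limma (6 with an unadjusted p under 0.05) and 14 rising in the set-blocked fit, among them Nusap1, a spindle protein, by 0.72 ± 0.11. Of the wider replication list 0 of 58 passed by limma (3 with an unadjusted p under 0.05), and the set-blocked fit called 2 higher (the histone chaperone Asf1b and E2f2) and 5 lower (among them Hells, a chromatin remodeller, and Dctd). Neutrophil and granule markers moved with the reporter here: 6 of 10 rose and 0 fell by limma, with list means of 10.55 and 9.51 in Id2-GFP- CDP against 12.12 and 12.96 in Id2-GFP+ CDP, and 2 of 5 monocyte markers rose (10.02 and 9.98 against 10.83 and 11.07). Of 7 T and NK markers 1 rose by limma and 4 in the set-blocked fit (5.27 and 5.03 against 5.71 and 6.002). Their part in the result was not tested.

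In pre-CD8 27 of 40 members were higher with the reporter. In Id2-GFP+ pre-CD8 Rrm2 and Ccne1 rose by 1.45 ± 0.30 and 1.24 ± 0.26 (limma adjusted p 0.0246 and 0.0271), while Mcm2, Mcm6, Chaf1b and Msh6 fell in the set-blocked fit. By limma 2 of 40 rose and 0 fell (7 had an unadjusted p under 0.05), against 3.57% higher and 2.7% lower over all genes, so the rising share of the members is near that of all genes. The set-blocked fit called 10 higher and 4 lower, against 11% and 13.2%, so the share that fell was not above that of all genes. The median over members was 0.17, but 0.02 within the brighter set and 0.30 within the dimmer set, and it was -0.08 without Id2-GFP- pre-CD8 replicate 2 and 0.31 without replicate 1 of that group. Higher in both sets were 21 members (34.1% of all genes) and lower in both were 9 (37.6%). The 2 limma calls were both lost without Id2-GFP- pre-CD8 replicate 2 (adjusted p 0.12 and 0.167) or without either Id2-GFP+ pre-CD8 array, and the Ccne1 call also without either Id2-GFP- CDP array (0.0518 and 0.0521). The set-blocked count was 9 without Id2-GFP- pre-CD8 replicate 2.

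By role, the set-blocked fit called 2 of 3 G1/S regulators, 2 of 4 nucleotide supply genes, 3 of 14 polymerase group genes, 2 of 13 licensing and helicase genes and 1 of 6 chromatin and repair genes higher, and 2 of 13 licensing and helicase genes and 2 of 6 chromatin and repair genes lower. Rrm2 was higher by 1.24 in the brighter and 1.66 in the dimmer set, and Ccne1 by 0.99 and 1.50. In the set-blocked fit Ccne2 rose by 0.95 ± 0.14 (adjusted p 0.000611), Tyms by 0.91 ± 0.15 (0.00118), Mcm10 by 0.63 ± 0.11 (0.00173) and Cdc45 by 0.61 ± 0.11 (0.00199). The remaining 4 were Fen1, Uhrf1, Pola1 and Rfc4, with rises of 0.44 ± 0.11, 0.43 ± 0.11, 0.54 ± 0.16 and 0.34 ± 0.11. Pola1 differed by 0.17 in the brighter and 0.90 in the dimmer set. Those that fell were Mcm6, by 0.61 ± 0.09 (adjusted p 0.000695), Msh6, by 0.51 ± 0.11 (0.00464), Mcm2, by 0.38 ± 0.09 (0.0108), and Chaf1b, by 0.41 ± 0.12 (0.0326). Within the brighter and dimmer sets the differences were -0.79 and -0.43 for Mcm6 and -0.66 and -0.36 for Msh6. For Mcm2 they were -0.52 and -0.24, and for Chaf1b -0.61 and -0.20. Fewer of these falls were called when Id2-GFP- pre-CD8 replicate 1 or Id2-GFP+ pre-CD8 replicate 2 was left out. Mcm6 read 11.54 and 11.10 in Id2-GFP- CDP, 10.70 and 11.17 in Id2-GFP+ CDP, 11.60 and 11.07 in Id2-GFP- pre-CD8, and 10.65 and 10.81 in Id2-GFP+ pre-CD8. Its Id2-GFP- pre-CD8 arrays were above both Id2-GFP+ pre-CD8 arrays, which is the reverse of Rrm2 on the same arrays.

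**Figure D3:**
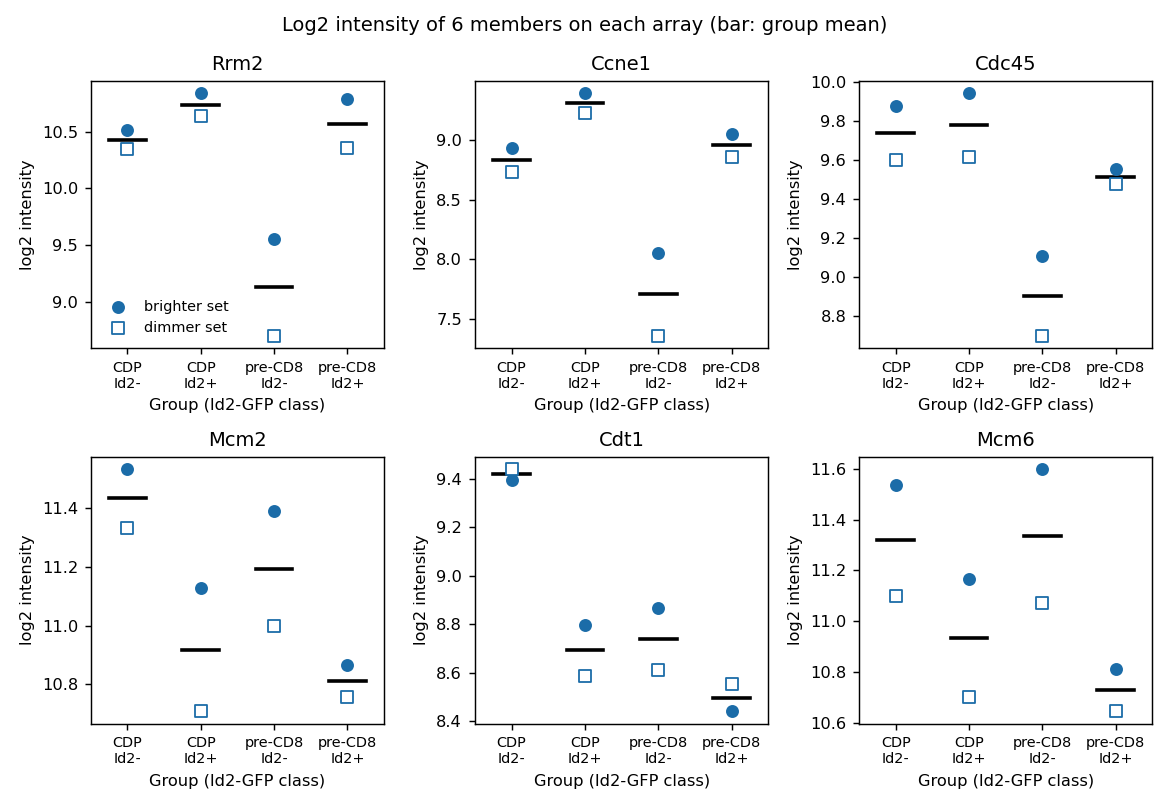
Points give the log2 intensity (vertical axis, scaled per gene) of 6 genes on each array of the 4 groups (horizontal axis), filled for the brighter and open for the dimmer set, and bars give group means. Rrm2, Ccne1 and Cdc45 are lowest on both Id2-GFP- pre-CD8 arrays; Mcm2 and Mcm6 in pre-CD8 are lower in the Id2-GFP+ class; Cdt1 is highest on both Id2-GFP- CDP arrays.

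Mitotic genes had a larger median than the members in this comparison. Of 42, 35 rose by limma and 42 in the set-blocked fit, with a median of 1.51; Prc1 rose by 1.95 ± 0.20 (limma adjusted p 0.00152), Nuf2 by 1.84 ± 0.20 (0.00182) and Ube2c, which works with the anaphase-promoting complex, by 1.82 ± 0.20 (0.00193). The wider replication list had 9 rising and 1 falling of 58 by limma, and 23 and 3 in the set-blocked fit. Its genes with the smallest p were Asf1b (1.96 ± 0.19), E2f8 (1.83 ± 0.25), E2f2 (1.47 ± 0.23), E2f7 (1.68 ± 0.28), the nuclease Dna2 (1.79 ± 0.33) and Dctd, a dCMP deaminase, which fell by 1.63 ± 0.29. Of a list of 17 E2F, pocket protein and other cell cycle genes, 4 rose by limma (E2f2, E2f7, E2f8 and the forkhead gene Foxm1) and 0 fell. E2f2, E2f7 and E2f8 are also in the wider replication list, so the 2 counts overlap. E2f2 is an activator and E2f7 and E2f8 are repressors; among the members E2f1 differed by 0.17 ± 0.25 and did not pass in either fit. Granule markers moved here too, with 6 of 10 rising and 1 (Mpo) falling by limma and list means of 10.16 and 9.92 against 11.29 and 11.57. Of 5 monocyte markers 3 rose (list means 8.04 and 7.70 against 9.70 and 9.65), 2 of 7 T and NK markers rose (5.30 and 5.21 against 5.65 and 5.68), and 2 of 6 B lineage markers fell (7.003 and 7.194 against 6.086 and 6.159). The part of these markers in the result was not tested.

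**Figure D4:**
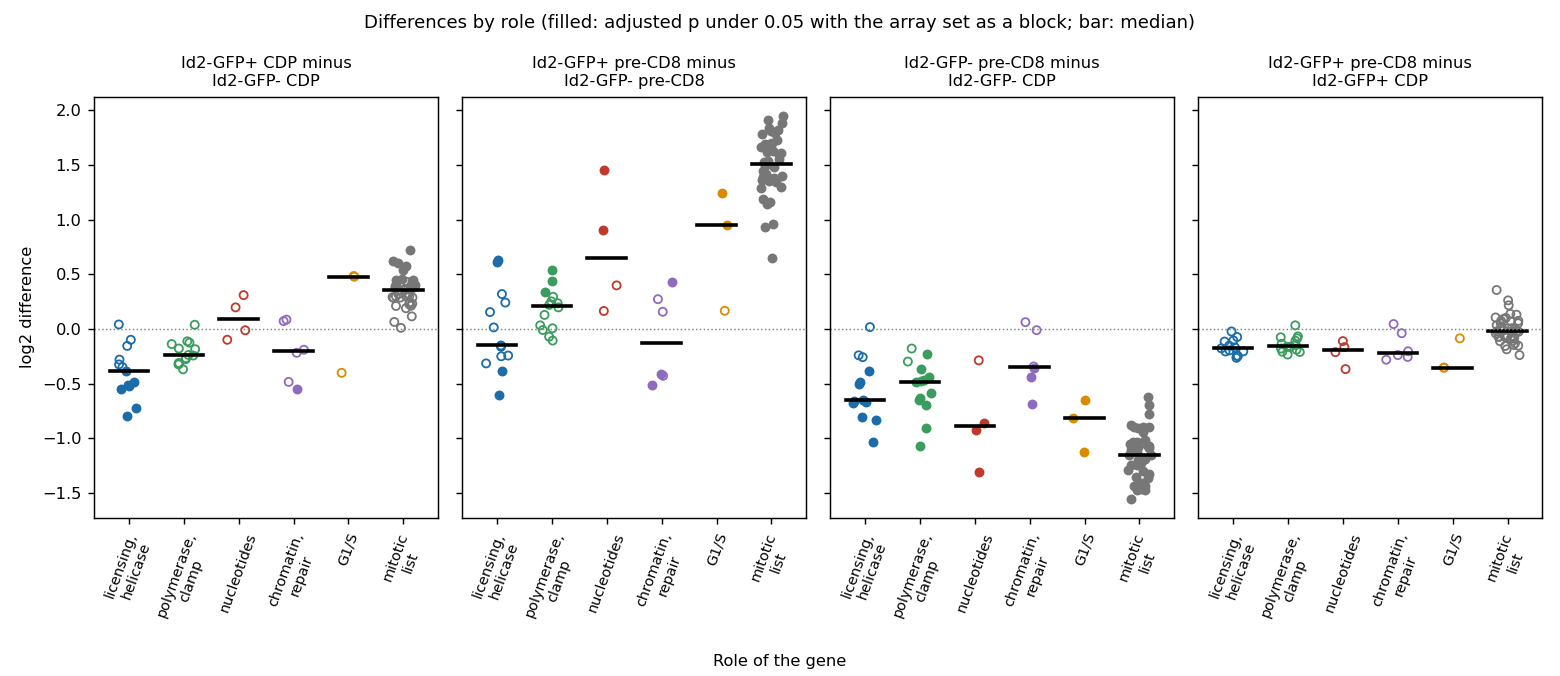
Each point is a gene, with its log2 difference on the vertical axis for 4 comparisons (panels) and its role on the horizontal axis; filled points have an adjusted p under 0.05 with the array set as a block and bars are medians. Licensing genes lie lowest of the roles with the reporter in CDP (median -0.38), nucleotide supply and G1/S genes lie highest in pre-CD8 (0.65 and 0.95), the 42 mitotic genes span 0.65 to 1.95 there, and the medians of the 5 roles lie between -0.35 and -0.15 between stages of Id2-GFP+ cells, where no point is filled.

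The reporter differences of the 2 stages come from separate arrays. By sign, 13 members were lower with the reporter in both stages, 8 were higher in both, 19 were lower in CDP and higher in pre-CD8, and 0 were the reverse. Those lower in both were Cdt1, Chaf1b, Mcm2, Mcm3, Mcm4, Mcm6, Mcm7, Msh6, Orc1, Pold3, Pole2, Rpa2 and Ung. Mcm2, Mcm6 and Chaf1b fell in both stages in the set-blocked fit, with calls that depended on single arrays in each stage. Those higher in both were Ccne1, Ccne2, Cdc45, Chaf1a, Pcna, Rrm2, Slbp and Tyms. Some signs rest on differences smaller than 1 SE of the set-blocked fit and are not settled. In CDP these include Cdc45 (0.04 ± 0.11), Chaf1a (0.07 ± 0.13), Pcna (0.04 ± 0.05) and Slbp (0.085 ± 0.097). Pold3 in pre-CD8 (-0.01 ± 0.10) is another. Across the 40 members the differences correlated with r of 0.78 (Spearman 0.70), against 0.63 across all genes; genes are not independent replicates and the value is a description. Of the 13 members lower in both stages, 12 had a promoter window and 8 held an E2F match, Mcm3, Mcm6 and Cdt1 among them. None of the 7 windows of genes higher in both stages held one, Rrm2 and Ccne1 included. The 19 of mixed sign had 14 genes with a window and 6 with a match, Pola1 among them. These groups were formed after the values were seen and their shares were not tested.

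**Figure D5:**
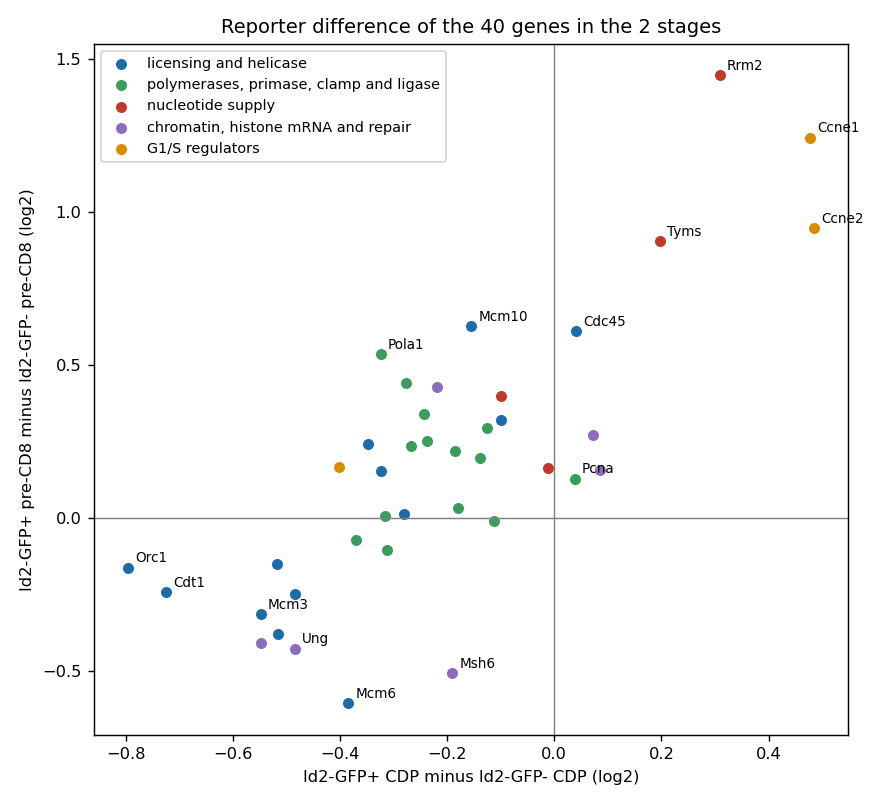
Each of the 40 points is a gene, coloured by role, with the log2 difference of Id2-GFP+ minus Id2-GFP- in CDP on the horizontal axis and in pre-CD8 on the vertical axis. The lower left holds 13 genes, with Orc1, Cdt1 and Mcm6 at its edge, and the upper right 8, with Rrm2, Ccne1, Ccne2 and Tyms; 19 lie in the upper left.

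The difference between the reporter effects of the 2 stages was itself tested, by an interaction term (pre-CD8 minus CDP). It was positive for 38 of 40 members, with a median of 0.41 (0.16 in the brighter and 0.57 in the dimmer set), and 7 passed in the set-blocked fit: Rrm2 (1.14 ± 0.21), Pola1 (0.86 ± 0.23), Mcm10 (0.78 ± 0.16), Ccne1 (0.77 ± 0.21), Fen1 (0.72 ± 0.15), Uhrf1 (0.65 ± 0.16) and Rfc4 (0.58 ± 0.15). By limma without the block 0 of 40 passed (1 had an unadjusted p under 0.05), with 0.0351% of all genes called positive and 0.11% negative; with the block the background was 4.09% positive and 3.4% negative. The 7 set-blocked calls became 0 without Id2-GFP- CDP replicate 2, 1 without Id2-GFP- pre-CD8 replicate 2, 2 without Id2-GFP- CDP replicate 1, 2 without Id2-GFP+ CDP replicate 2, 3 without Id2-GFP+ CDP replicate 1, 3 without Id2-GFP+ pre-CD8 replicate 1, and 3 after quantile normalization. The median was 0.14 without Id2-GFP- pre-CD8 replicate 2, 0.62 without replicate 1 of that group, 0.27 without Id2-GFP- CDP replicate 1 and 0.24 without Id2-GFP+ CDP replicate 1. The 2 members with a negative value were Mcm6 and Msh6, whose reporter differences were -0.38 and -0.19 in CDP and -0.61 and -0.51 in pre-CD8. In the mitotic list 41 of 42 passed in the set-blocked fit and 0 by limma (34 with an unadjusted p under 0.05), with a median of 1.13.

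The remaining pairs of groups join a stage difference to a reporter difference. From Id2-GFP+ CDP to Id2-GFP- pre-CD8, which share no reporter class, Ccne1, Rrm2 and Ccne2 fell, with differences of -1.60 ± 0.26, -1.61 ± 0.30 and -1.30 ± 0.27 (limma adjusted p 0.0113, 0.0187 and 0.0312). These were the 3 of 40 members called lower by limma, with 0 called higher, against 2.81% and 2.08% of all genes. The set-blocked fit called 17 lower and 2 higher (Mcm6 by 0.40 ± 0.09 and Ung by 0.47 ± 0.14), against 9.88% and 12.1%. The median over members was -0.30; it was -0.49 without Id2-GFP- pre-CD8 replicate 1 and -0.05 without replicate 2. Without the latter array, or without Id2-GFP+ CDP replicate 2, limma called none of the 3. The Ccne2 call was also lost without either Id2-GFP- CDP array (adjusted p 0.0515 and 0.0517), and without Id2-GFP+ CDP replicate 1 only Ccne1 was left. The set-blocked count was 12 without Id2-GFP+ CDP replicate 1 and 11 without Id2-GFP- pre-CD8 replicate 2. Mitotic genes fell in 33 of 42 cases by limma, with a median of -1.53. Markers of other cell types differed too: by limma 5 of 5 monocyte markers fell (list means 10.83 and 11.07 against 8.04 and 7.70), 7 of 10 granule markers fell (12.12 and 12.96 against 10.16 and 9.92), 2 of 7 T and NK markers fell (5.71 and 6.002 against 5.30 and 5.21) and 2 of 6 B lineage markers rose (5.93 and 6.31 against 7.003 and 7.194). Their part in the result was not tested.

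From Id2-GFP- CDP to Id2-GFP+ pre-CD8 the members were lower in 37 of 40 cases, with a median of -0.41 (-0.24 without Id2-GFP- CDP replicate 1). By limma 0 of 40 passed (10 had an unadjusted p under 0.05; 1.39% of all genes were called higher and 0.401% lower), and Cdt1, at -0.92 ± 0.20, had the smallest adjusted p, 0.0729. In the set-blocked fit 20 fell and 0 rose, against 8.85% and 6.97%, and 10 of those 20 are licensing and helicase genes. Mcm2, Mcm3, Mcm6 and Mcm7 fell by 0.62 ± 0.09, 0.70 ± 0.11, 0.59 ± 0.09 and 0.63 ± 0.11. The G1/S cyclins were on the other side, Ccne1 at 0.12 and Ccne2 at 0.13, neither called. The set-blocked count was 5 without Id2-GFP- CDP replicate 1, 7 without Id2-GFP- CDP replicate 2 and 6 without Id2-GFP+ pre-CD8 replicate 2. Between these groups 15 of 42 mitotic genes rose in the set-blocked fit (0 by limma, 5 with an unadjusted p under 0.05), with a median of 0.33, and 0 fell. By limma 6 of 10 granule markers rose and 3 fell (list means 10.55 and 9.51 against 11.29 and 11.57), 2 of 5 monocyte markers rose and 1 fell (10.02 and 9.98 against 9.70 and 9.65) and 1 of 7 T and NK markers rose (5.27 and 5.03 against 5.65 and 5.68); their part in the result was not tested. Over all 6 pairs of groups, Rfc2, Pold3 and Dut were called in none by either fit.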

How the data were processed

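Affymetrix arrays of 8 samples (4 groups of 2) were analysed. The deposited table holds linear intensity values of 28853 probe sets; RMA and Affymetrix Expression Console are named in the submitters' processing notes, and their versions are not given in the sources used here. RMA compresses low values. Log2 was taken, with no further normalization. A probe set was used where the array annotation gave it 1 symbol (21789; 1621 had several, 5443 none), and the probe set with the highest mean stood for a gene (999 genes had several, Pcna and Slbp among the members), leaving 19938 genes; 0 columns belonged to other samples.

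Groups were compared with limma 3.58.1 in R 4.3.3 (a mean per group, all 8 arrays, trended variance prior, 4 residual degrees of freedom, 8.19 in all; with the array set as a block 3 and 10.53). All tests are two-sided, with Benjamini-Hochberg adjustment over all 19938 genes and a threshold of 0.05. An exact permutation test of 2 against 2 arrays cannot go below 0.333. The fit without a block was tested on simulated data for the reporter comparison in pre-CD8. It called 4% of genes changed by 0.5 (log2), 40% of those changed by 1 and 92% of those changed by 2. The simulated noise was independent between arrays, held no array-set difference, and 50 genes were changed per size. Real arrays differed by set, so recovery on them may differ. Python 3.11.15 drew figures. Members, lists and tests were chosen with earlier results of these data known. All 40 members are named, with values of every array for the 12 with the smallest p and for Mcm6, added after its values were seen; of other lists, up to 6 genes with the smallest p in a comparison were eligible. Alternatives were the array set or the replicate number as a block, quantile normalization, dim genes left out, no intensity trend, the mean of a gene's probe sets, and each array left out.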

Additional observations from a re-analysis of the deposited data

Results flagged for a closer look

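The reporter difference in pre-CD8 departed from that in CDP for 7 members, by the interaction term of limma with the array set as a block. The excess in pre-CD8 over CDP was 1.14 ± 0.21 (log2 ± SE; adjusted p 0.00737) for Rrm2, 0.78 ± 0.16 (0.0126) for Mcm10, 0.72 ± 0.15 (0.0158) for Fen1 and 0.65 ± 0.16 (0.0344) for Uhrf1. It was 0.58 ± 0.15 (0.0388) for Rfc4, 0.86 ± 0.23 (0.0461) for Pola1 and 0.77 ± 0.21 (0.0477) for Ccne1. Without the block 0 of 40 passed. In groups of 2 arrays no single array can be tested as standing apart.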

How the results depend on the processing

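Counts of members called by limma depended most on the array set. With the set as a block they were 8 (reporter in CDP), 14 (reporter in pre-CD8), 31 (stage in Id2-GFP-), 20 (Id2-GFP+ pre-CD8 against Id2-GFP- CDP), 19 (Id2-GFP- pre-CD8 against Id2-GFP+ CDP) and 7 (interaction), against 0, 2, 0, 0, 3 and 0 without it. Quantile normalization called 7, 10, 6 and 9 in the reporter comparison of pre-CD8, the Id2-GFP- stage comparison and those last 2 pairs, and 3 in the set-blocked interaction. Leaving out dim genes or the intensity trend called 1 in Id2-GFP+ pre-CD8 against Id2-GFP- CDP. Replicate numbers followed the array sets within a reporter class but were swapped across classes. Deviations of same-numbered arrays correlated at 0.69 to 0.71 within a class and -0.69 to -0.63 across classes. With the replicate number as a block 0 members passed in the reporter comparison of pre-CD8 (Rrm2 0.0623 and Ccne1 0.0644, limma adjusted p) and 1, Ccne1, in Id2-GFP- pre-CD8 against Id2-GFP+ CDP. Leaving out 1 array at a time gave limma counts of 0 to 2 (reporter in pre-CD8), 0 to 1 (stage in Id2-GFP-) and 0 to 4 (Id2-GFP- pre-CD8 against Id2-GFP+ CDP). Set-blocked counts were 0 to 10, 9 to 16, 9 to 32, 5 to 21, 11 to 22 and 0 to 9 in the order of the second sentence. Medians ranged from -0.081 to 0.308 (reporter in pre-CD8), -0.791 to -0.278 (stage in Id2-GFP-), -0.489 to -0.049 (Id2-GFP- pre-CD8 against Id2-GFP+ CDP), 0.141 to 0.618 (interaction), -0.405 to -0.071 (reporter in CDP), -0.312 to -0.022 (stage in Id2-GFP+) and -0.56 to -0.239 (Id2-GFP+ pre-CD8 against Id2-GFP- CDP). Fewer arrays leave fewer degrees of freedom; otherwise the cause was not tested. Signal over background was not measured here, and 2 arrays a group limit the precision.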
